A study of Arabidopsis thaliana with 4 samples.

Results

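The mitochondrial genome of Arabidopsis thaliana was read on the Affymetrix ATH1 array by a block of 50 probe sets, out of 22810 on the array and 22746 that are not Affymetrix controls. A probe set is a group of short probes that together give 1 signal for 1 transcript. The 50 were chosen by identifier alone, with no measured value: 31 run from 244901_at to 244931_at and 19 from 244941_at to 244959_s_at, the part of the ATH1 numbering assigned to this genome. No table used here pairs a probe set with a gene, so the assignment rests on that numbering, and the probe sets are given by identifier without gene names or sequences.

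Rosette leaves of the wild type were compared with those of AS12, a Col-0 line that carries an AOX1a (At3g22370) antisense construct driven by the 35S promoter, a viral promoter active in most plant tissues. AS12 was the single transformed line in these data. AOX1a, a nuclear gene, encodes an alternative oxidase of the inner mitochondrial membrane. Each genotype was measured on 2 arrays, with RNA pooled from 7 and 9 plants for wild type 1 and 2 and from 9 and 8 plants for antisense 1 and 2. All plants received no fertilizer, a temperature of 23 °C, a 14 h day and light of 350 µmol photons m-2 s-1, and their leaves were harvested 21 days after sowing. The transcript level of AOX1a and the leaf markers could not be read without gene names, so neither the genotype labels nor the tissue were checked against them.

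Plant mitochondria keep a small genome of their own. It codes for core subunits of respiratory complexes I, III and IV and of the ATP synthase, for proteins of cytochrome c maturation, for some ribosomal proteins and RNAs, and for a maturase of intron splicing, while the nucleus supplies most mitochondrial proteins. RefSeq's annotation of the TAIR10.1 assembly lists 33 protein-coding genes on this genome, fewer than the 50 probe sets. Array labelling of this type starts from poly(A) tails. Plant mitochondrial messengers mostly lack stable tails, and a tail added to them marks them for decay. The arrays therefore read mitochondrial transcripts only in part, and a signal here is a level of tailed or otherwise primed RNA and not of the whole transcript pool. Long stretches of mitochondrial DNA have also been copied into the nuclear genome, above all into chromosome 2, and probes for a mitochondrial gene can bind RNA from such a copy. Which probe sets this touches was not tested.

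Most of the 50 probe sets were dim in leaves. Their median signal, on the authors' linear intensity scale, was 52.9 and 48.6 on wild type 1 and 2 and 63.4 and 54.8 on antisense 1 and 2, where the median over all 22746 probe sets lay between 165.7 and 177.0. On the log2 scale the members' array medians averaged 5.66 ± 0.09 in the wild type and 5.88 ± 0.15 in the antisense line (SD, n = 2), a difference of 0.22, and both antisense medians lay above both wild-type medians. The array means of the members' log2 signals were 5.36 and 5.39 in the wild type and 5.68 and 5.52 in the antisense line, a difference of 0.23 without overlap. Over the 15 members that passed the filter on low values described below, the array medians differed by 0.01 and the array means by -0.12. These means did not overlap either, in the opposite direction: 7.89 and 7.93 in the wild type and 7.83 and 7.75 in the antisense line. Over all 22746 probe sets the array medians differed by -0.006 and the array means by -0.009. These differences of array summaries carry no test. In the order of mean log2 level over all probe sets, the median member stood at the 28.3rd percentile, 9 members lay above the middle of the array, 9 in the lowest 10% and 0 in the highest 10%. The signals of different probe sets depend on how well their probes bind, so these positions describe signals and not amounts of transcript.

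Depth on the array can be gauged from the facility's quality sheet. It gives scale factors of 4.07 to 4.54, by which signals were multiplied, noise values of 1.82 to 1.94 and backgrounds of 47.93 to 53.16. Divided by the scale factor, the median member signal was 11.7 on wild type 1, 11.9 on wild type 2, 14.6 on antisense 1 and 13.1 on antisense 2. Of the 50 members, 8 to 11 per array then lay below the sheet's noise value (9.22% to 10.6% of all probe sets did). On each array 7 lay above its background value. That count is not used as a gauge, because the share over all probe sets was not taken. Whether background had already been taken off the signals was not checked, so the values compared may be unlike measures. A signal below the background value is not read here as absence of a transcript. A second gauge was the set of 27 control probe sets for Bacillus transcripts, which are not plant genes and read at most 42.8 to 97.2, depending on the array. Whether such transcripts were added to these samples is not given in the sources used here. On all 4 arrays 16 members exceeded the highest of these controls and 14 did so on no array, while 59.8% of all probe sets exceeded it on all 4.

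The brightest member was 244929_at, with signals of 1108.4 and 1195 in wild type 1 and 2 and of 1094 and 1015.5 in antisense 1 and 2. Both antisense arrays lay below both wild-type arrays, by a gap of only 1.01-fold. Next came 244912_at, at 941.4 and 991.9 in the wild type and 878.1 and 969.5 in the antisense line, where the groups overlapped. These 2 varied by 1.18-fold and 1.13-fold over the 4 arrays and had a log2 difference, antisense minus wild type, of -0.13 (95% interval -0.56 to 0.31) and -0.07 (-0.51 to 0.37).

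The next 3 in level carry the suffix _s_at, which marks a probe set that can bind more than 1 transcript. Probe set 244920_s_at read 364.1 and 439.9 in the wild type and 405.3 and 397.6 in the antisense line, with group means of 402.0 ± 53.6 and 401.5 ± 5.44 (SD, n = 2). For 244944_s_at the signals were 313.3 and 376.6 against 311.7 and 492, so that antisense 2 was the high array. For 244921_s_at they were 266.9 and 326.6 against 282.5 and 287.6, within the wild-type range. The log2 differences of these 3 were 0.0044 (-0.48 to 0.49), 0.19 (-0.47 to 0.85) and -0.05 (-0.55 to 0.45), and none of the 3 separated the genotypes.

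Probe sets that can bind several transcripts were common among the members. The suffix _s_at was carried by 14 of the 50 (28.0%) and by 935 of all 22746 probe sets (4.11%). Among the 15 members that passed the filter on low values it was 6 (40%), and among the 13648 probe sets that passed it 444 (3.25%). The median signal of the 14 was above that of the 36 other members on each array, by unequal amounts: it was 83.3 against 48.9 on wild type 1, 98.2 against 36.1 on wild type 2, 70.1 against 57.5 on antisense 1 and 85.7 against 50.5 on antisense 2.

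At the other end, the 5 dimmest members were 244914_at, 244931_at, 244908_at, 244917_at and 244954_s_at. Their signals lay between 0.7 and 5.7 over the 4 arrays. Probe set 244954_s_at, the lowest, read 3.0 and 0.7 in the wild type and 2.1 and 1.5 in the antisense line, a 4.29-fold range with no separation of the groups. At such values signal and background cannot be told apart, and a fold change is not read as a difference in RNA.

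**Figure D1:**
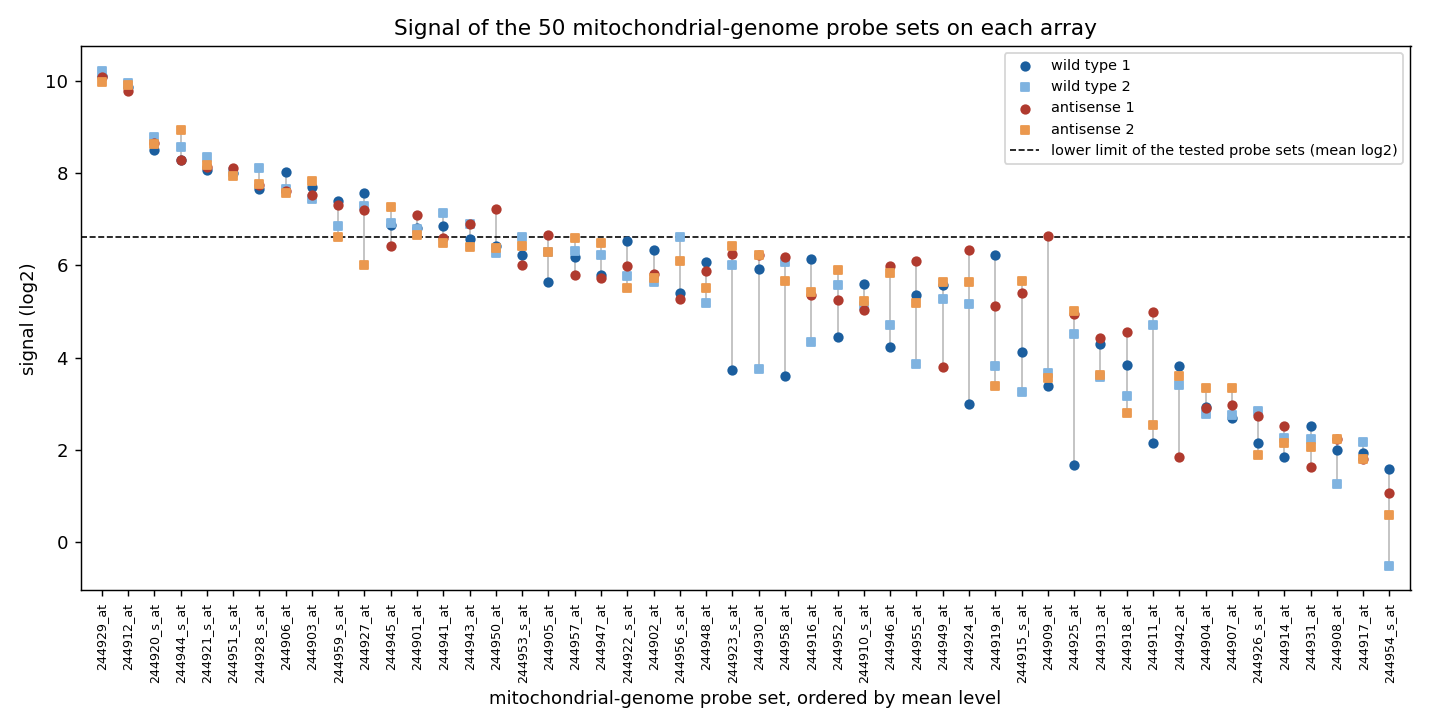
Signal (log2) of each of the 50 mitochondrial-genome probe sets on the 4 arrays, ordered by mean level; circles and squares are the arrays numbered 1 and 2, blue the wild type and red or orange the antisense line, grey lines join the lowest and highest array, and the dashed line is the lowest mean log2 level among tested probe sets (6.61). The 15 probe sets on the left pass that limit and their arrays lie close together, while 11 of the 35 others span more than 4-fold.

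The spread between arrays followed the level. Over the 4 arrays the median range was 1.37-fold for the 15 brighter members and 2.54-fold for the 35 dimmer ones, with a widest range of 2.96-fold and 10.1-fold. The same medians over all probe sets on either side of the limit were 1.38-fold and 3.02-fold. The SD of the log2 signal over the 4 arrays had a median of 0.20 in the brighter members and 0.62 in the dimmer, beside 0.21 and 0.72 in all probe sets. In these terms the brighter mitochondrial probe sets varied about as other probe sets above the limit did.

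**Figure D2:**
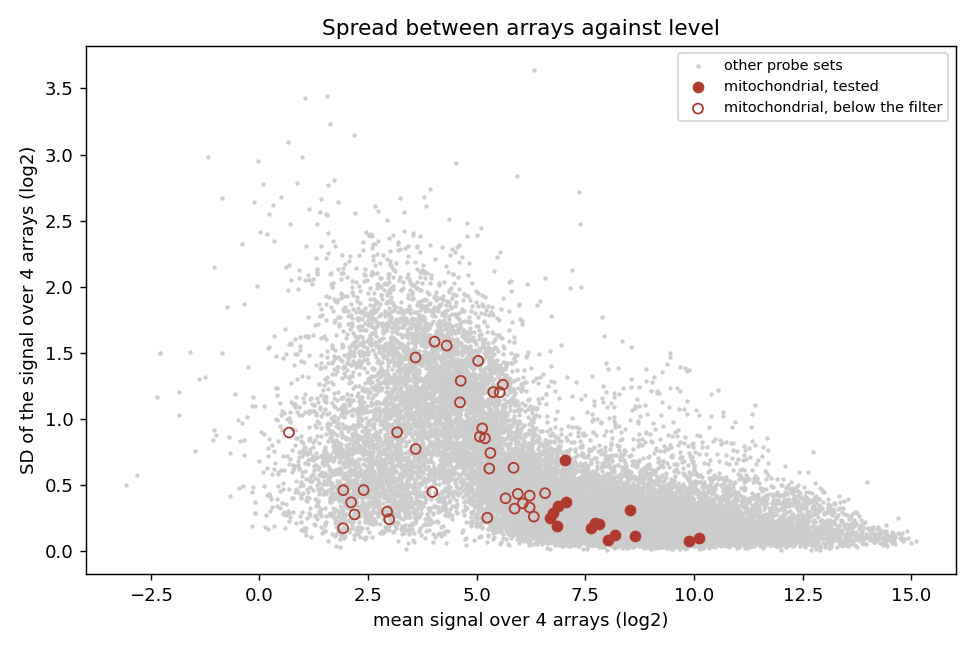
SD of the log2 signal over the 4 arrays against the mean log2 signal, for the other probe sets (grey) and the mitochondrial ones (red, filled where tested, open where below the filter). The filled points have a median SD of 0.20, the open ones of 0.62, and both lie within the grey cloud.

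The genotype comparison asked whether transcripts read by the mitochondrial block differed in leaves with the AOX1a antisense construct. No member was called. The test was limma's moderated test on log2 signals over the 13648 probe sets left after dropping the 40% with the lowest mean, with Benjamini-Hochberg adjustment over all of them and a threshold of 0.05. It called 0 of the 15 members tested, where it called 0 of all 13648 (0%). At an unadjusted p of 0.05 it also gave 0 of the 15 (379 of all), with the lowest unadjusted p among members at 0.099 and every adjusted p above 0.99. The median 95% interval of the 15, not adjusted for the number of probe sets, reached 0.58 log2 units to either side. A call after adjustment needs a larger difference than that in a typical member. The lowest unadjusted limma p of all 13648, 4.0e-06, became an adjusted p of 0.054 and was not called.

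The median log2 difference, antisense minus wild type, was 0.08 over all 50 members and -0.07 over the 15 tested, beside -0.03 over all 13648 tested probe sets. By number, 28 of the 50 were higher in the antisense line and 22 lower, and of the 15 it was 5 and 10. Higher in the antisense line were 45.8% of all 22746 probe sets and 44.0% of the tested ones. The arrays of the genotypes did not overlap in 4 of the 15 tested members, beside 26.8% of all tested probe sets, and in 15 of the 50, beside 29% of all 22746. All 4 of the tested ones were lower in the antisense line, and their gaps were narrow. Among all tested probe sets without overlap, 2193 were lower in the antisense line and 1465 higher.

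Of these 4, the lowest p belonged to 244927_at, which read 190.6 and 157 in the wild type and 147.7 and 64.5 in the antisense line. Antisense 2 was low and antisense 1 lay within 1.06-fold of wild type 2. The group means were 173.8 ± 23.8 and 106.1 ± 58.8 (SD, n = 2), the log2 difference was -0.83 (-1.86 to 0.21), and the adjusted p by limma was above 0.99.

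Probe set 244941_at read 115.8 and 140.1 in the wild type against 97 and 89.2 in the antisense line, 1.37-fold lower, with a gap of 1.19-fold between the groups and a log2 difference of -0.45 (-1.13 to 0.22). For 244906_at the signals were 260.3 and 201.1 against 196.5 and 189.7, a gap of 1.02-fold and a log2 difference of -0.24 (-0.81 to 0.32). In that probe set wild type 1 was the high array and the other 3 lay close together. The last of the 4 was the brightest member, 244929_at. Every one of the 4 intervals includes 0.

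The 3 tested members with the widest range over the arrays were 244927_at, 244945_at and 244959_s_at. Probe set 244945_at read 118 and 121.3 in the wild type and 86 and 153.5 in the antisense line, so that the antisense arrays lay on both sides of the wild type and the log2 difference was -0.06 (-0.91 to 0.79). The arrays of 244959_s_at read 169 and 116.5 against 158.3 and 97.7. There the arrays numbered 1 were the higher ones in both genotypes, and the log2 difference was -0.17 (-1.02 to 0.67). In both of these probe sets the antisense arrays lay further from each other than the genotype means did.

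**Figure D3:**
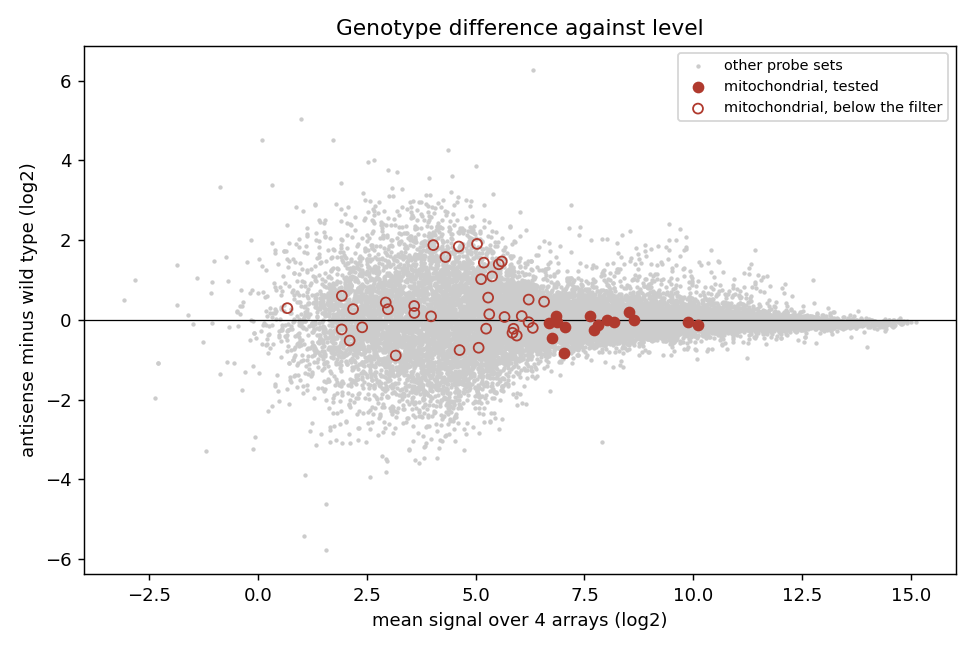
Log2 difference, antisense minus wild type, against mean log2 signal over the 4 arrays, for other probe sets (grey) and mitochondrial ones (red, filled where tested, open where below the filter). The filled points run from -0.83 to 0.19, and the open ones from -0.89 to 1.90.

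Among the 35 members below the filter, the largest differences were positive (higher in the antisense line). A mean log2 signal over 1 unit higher in the antisense line was found in 9 of the 50 members, beside 5.73% of all 22746 probe sets, and over 1 unit lower in 0 of the 50, beside 5.3%. All 9 were below the filter, where the shares over all 9098 such probe sets were 12.8% higher and 13.1% lower. The lowest array was wild type 1 in 6 of the 9 and wild type 2 in 3. A higher antisense mean makes a wild-type array the likely lowest. Of the 1168 probe sets below the filter that were higher by over 1 unit, wild type 1 was lowest in 630 and wild type 2 in 496. The count of members beyond 1 unit was made after the values had been seen and carries no test. It rests on signals of 3.2 to 99.5, and the count of higher members moved to 7 with wild type 1 left out, to 6 with antisense 1 left out and to 11 with antisense 2 left out, and stayed at 9 with wild type 2 left out. The count of lower members stayed at 0 with wild type 1 left out and moved from 0 to 2 with wild type 2, antisense 1 or antisense 2 left out. The shares over all probe sets rose as well with 1 array left out. They were then 6.43% to 8.31% for higher and 6.5% to 7.17% for lower.

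A stricter count asked for at least 1.5-fold between each antisense and each wild-type array, in all 4 pairs. It was met by 2 of the 50 members, beside 4.52% of all probe sets, and by 0 of the 15 tested. Both were higher in the antisense line, and they are named here after their values were seen. Probe set 244946_at read 18.9 and 26.1 in the wild type against 63.2 and 57 in the antisense line. Probe set 244915_s_at read 17.5 and 9.6 against 42.3 and 50.8. The gaps between the groups were 2.18-fold and 2.42-fold. With the filter taken away, limma gave them a log2 difference of 1.43 (95% interval 0.13 to 2.74) and 1.84 (0.28 to 3.40), with an unadjusted p of 0.036 and 0.028 and an adjusted p of 1 for both over 22746 probe sets. They were the 2 members with an unadjusted p under 0.05 in that fit, beside 3.51% of all probe sets. Both stood below the highest Bacillus control on both wild-type arrays, where it read 67.7 and 97.2. Probe set 244915_s_at stood below it on antisense 1 as well, where it read 60.2. The size of the difference says little where 1 array decides it. In 244909_at, antisense 1 read 99.5 while the other 3 arrays read 10.5, 12.6 and 11.8, a log2 difference of 1.57 between groups that overlapped.

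The 4 arrays can also be set against each other by their number or crosswise, and the same values were taken for these arrangements as a description. The arrays numbered 1 minus those numbered 2 gave a median log2 difference of -0.04 over the 50 members, and wild type 1 with antisense 2 minus the other pair gave -0.06, beside 0.08 for the genotypes. The arrays did not overlap by genotype in 15 of the 50, by number in 21 and crosswise in 14. Over all 22746 probe sets the shares were 29% by genotype, 27.2% by number and 43.3% crosswise, and for the members they were 30.0%, 42.0% and 28.0%. The arrangement that parted the most probe sets on the array as a whole was thus not the one that parted the most members. Whether the members differ from the rest in this was not tested.

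The parting by number was uneven within the block. It held for 12 of the 19 members of the second range (63.2%) and for 9 of the 31 of the first (29.0%), beside 27.2% of all probe sets. The genotypes were parted in 2 of the 19 and 13 of the 31, beside 29% of all probe sets. Whether the ranges differ was not tested. Some measures of the facility's sheet part the arrays by number as well (scale factor, background and noise). Scale factors were 4.54 and 4.34 for the arrays numbered 1 and 4.07 and 4.18 for those numbered 2. Backgrounds were 48.58 and 47.93 for the arrays numbered 1 and 51.81 and 53.16 for those numbered 2. The percent of probe sets called present did not part them, at 55.5 and 57.3 against 56.2 and 55.9. The sheet's ratios for Actin and GapDH were not compared. The part of these measures in the members' values was not tested. In the second range the median log2 difference of number 1 minus number 2 was -0.40, and in the first it was -0.001. The second range went both ways, from -1.02 to 1.29. Of its 12 members parted by number, the arrays numbered 1 were higher in 5 and lower in 7.

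**Figure D4:**
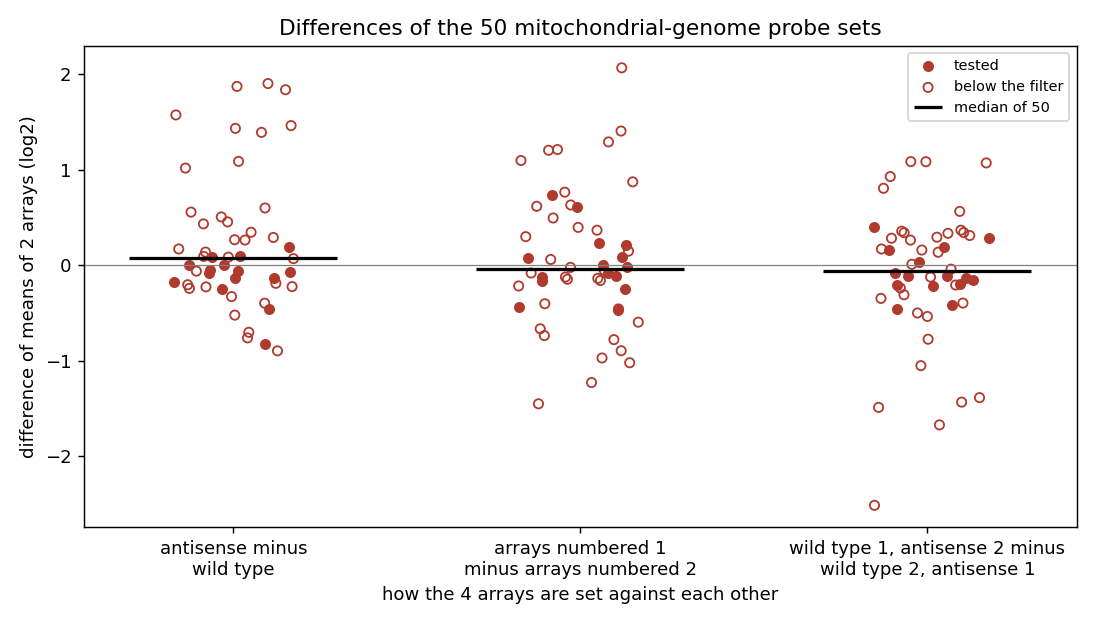
Log2 difference between the means of 2 arrays for each of the 50 mitochondrial-genome probe sets under the 3 ways of setting the 4 arrays 2 against 2 (filled where tested, open where below the filter, horizontal position within a column random); black bars are medians over the 50. The medians are 0.08, -0.04 and -0.06, and the open points spread from -2.51 to 2.07 where the filled ones stay between -0.83 and 0.74.

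Between arrays, the members gave the following picture. Over the 15 tested members, log2 signals of wild type 1 and 2 differed with an SD of 0.29 and those of antisense 1 and 2 with an SD of 0.50, and the SD ran from 0.24 (antisense 1 with wild type 1) to 0.52 (antisense 2 with wild type 1) across genotypes. A pair of arrays of 1 genotype was therefore as far apart in these members as a pair from different genotypes. Antisense 2 was the lowest array in 8 of the 15, and wild type 2 the highest in 6. Of all 13648 tested probe sets, antisense 2 was lowest in 4205 and wild type 2 highest in 3459. Over the 35 dimmer members the SDs were 1.33 and 1.01 within the genotypes and 0.85 to 1.38 across them.

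The 9 probe sets numbered between the 2 ranges, 244932_at to 244940_at, are not part of the mitochondrial block, and their genes are not named here either. They were compared after their values had been seen. All 9 were far brighter than the typical member, with medians of 1933.3 and 2504.5 in the wild type and 1658 and 2229.9 in the antisense line, and 5 of the 9 were in the top 10% of the array's levels. None fell below the filter. Their median log2 difference between the genotypes was -0.15, with 7 of 9 lower in the antisense line, and limma called 0 of the 9. Antisense 1 was their lowest array in 6 of 9, and the arrays were parted by number in 7 of 9, beside 27.2% of all probe sets. The mitochondrial members of the neighbouring ranges had antisense 1 as their lowest array in 12 of 50 and as their highest in 16. Of all 22746 probe sets, antisense 1 was the lowest array in 6129 and the highest in 6130.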

How the data were processed

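The authors' labels state that cRNA was made with Affymetrix components and that signals were computed with MicroArray Suite 5.0. The deposited table holds 1 linear intensity per probe set and array, scaled by the authors: with 2% trimmed from each end, all 4 arrays had a mean of 500.05. Scaling hides a shift common to all transcripts. The facility's deposited quality sheet gave background, noise and scale factors. No detection calls per probe set were used, and the number of arrays limits the precision.

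Intensities were log2-transformed without rescaling. The genotypes were compared with limma 3.58.1 in R 4.3.3 (lmFit, eBayes with intensity trend, Benjamini-Hochberg, threshold 0.05) on 13648 probe sets, leaving out 64 controls and the 40% with the lowest mean log2 value. The fit had 2 residual and 4.25 prior degrees of freedom. It was run on simulated data with independent noise on each array, without the crosswise parting of these arrays. That run therefore does not show what size of difference the fit can find here. With 2 arrays against 2 an exact two-sided permutation p cannot go below 0.333, so none is given. P-values measure the spread between 2 pools per genotype of 1 growth experiment.

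The members, lists and tests were chosen with earlier results of these data known. Named were the 5 brightest and 5 dimmest members, the tested members whose genotypes did not overlap (up to 5 each way by p) and the 3 with the widest range. Planned values of AOX1a, tissue markers and lists of nuclear and plastid genes needed gene names and were not computed. Alternatives were 4 other scalings, a log offset, 2 other filters, a replicate block, other eBayes settings, leaving out multi-transcript probe sets and leaving out each array. Equal array numbers are not stated to pair arrays, so the numbers were not treated as pairs. Arrays of equal number deviated from their group means with a correlation of -0.42 across tested probe sets. Across all 50 members, 35 of them below the filter, the correlation was 0.0062. The 2 values cover unlike sets, and the correlation over the 15 tested members alone was not taken. Those 15 were parted by number in 46.7%, beside 23.3% of all tested probe sets. Whether arrays of equal number vary together in the tested members was not tested.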

Additional observations from a re-analysis of the deposited data

How the results depend on the processing

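No member was called under any of the 17 alternatives, at an adjusted p of 0.05 or 0.1, with the replicate block (0 called) or with any array left out. The crossed pairing as a block, chosen after seeing the data because same-numbered deviations correlated at -0.42, called 42 higher and 2 lower probe sets over the array and 0 members. A lone array is assumed to vary like the others where its partner is left out. The median difference over the 50 members, 0.08, became -0.051 over the 5 members past a 60% filter and -0.067 over the 15 past the 40% filter, an alternative added after seeing the data. It lay between 0.02 and 0.11 otherwise. The 15 members without overlap became 1 of 5 and 4 of 15 under these filters, which keep fewer members. They became 31 to 36 with 1 array left out, where fewer arrays have to part. The share over all probe sets was not taken with an array left out, so that rise is not read as a trait of the members.

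Of the counts beyond 1 log2 unit, the 9 higher members became 0 under the 60% filter and were 7 to 9 under the scalings, the offset and without _s_at and _x_at probe sets. The 0 lower members became 0 to 2 without 1 array: 2 without wild type 2, antisense 1 or antisense 2. The share of lower ones over all probe sets was then 6.5% to 7.17%, beside 5.3% with all arrays.

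The members' median log2 level rests on which members are counted. On wild type 1 and 2 and antisense 1 and 2 it was 7.71, 7.65, 7.62 and 7.77 past the 40% filter and 8.51, 8.78, 8.66 and 8.94 past the 60% filter. With the offset of 8.1 it was 5.93, 5.83, 6.16 and 5.97. Without _s_at and _x_at it was 5.17 on wild type 2 and 5.84 on antisense 1, and after cyclic loess 5.43 on wild type 2.

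Of the 10 named tested members, 4 kept their direction under all alternatives (244929_at, 244927_at, 244941_at and 244906_at), for which the choice of groups without overlap fixes it when an array is left out. The other 6 changed sign with an array left out. The range was -0.14 to 0.0047 for 244912_at, -0.13 to 0.14 for 244920_s_at, -0.14 to 0.52 for 244944_s_at, -0.20 to 0.095 for 244921_s_at, -0.48 to 0.36 for 244945_at and -0.52 to 0.17 for 244959_s_at. Of the 35 dimmer members 14 were above the highest Bacillus control on no array, which limits what their values show. What caused the shifts was not tested, beyond the fewer members or arrays that some settings keep.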
